A study of Mus musculus with 25 samples.

Results

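The 10 genes H2-K1, H2-D1, B2m, Tap1, Tap2, Tapbp, Psmb8, Psmb9, Psmb10 and Nlrc5 encode the classical MHC class I molecule, its peptide loading machinery, the immunoproteasome and their transcriptional regulator. They were listed as symbols for their place in this pathway and mapped to the Ensembl identifiers of the deposited count table, where all 10 of the 10 were found among 13641 genes, and all 10 passed the filter on low counts. The reads came from blood stem cells, gated as CD150+ and CD48- within the lineage-negative, Sca1+ and cKit+ fraction and sorted from the bone marrow of mice that had received marrow from donors of 4 genotypes. Tamoxifen was started 16 weeks later to switch on a mutant JAK2 transgene, and the cells were sorted after 2 or 4 weeks.

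The WT group (4 libraries at 2 weeks) is labelled SclCre;GFP, a tamoxifen-inducible Cre with a GFP marker and no JAK2 mutation. The VF group (4 libraries at 2 weeks, 3 at 4 weeks) is labelled SclCre;V617F;GFP and adds the human JAK2 carrying the mutation that drives most myeloproliferative neoplasms. The Il1bKO group (4 and 3 libraries) is labelled SclCre;V617F;IL-1b-/-GFP and the Il1r1KO group (4 and 3 libraries) SclCre;V617F;IL-1R1-/-GFP, so these cells lack the cytokine IL-1β or its signalling receptor in addition. By their labels all 4 genotypes carry the Cre and GFP and all received tamoxifen. The Cre is driven by regulatory DNA of Scl, which is active in stem cells of the blood. The labels used here give neither the recipients' strain nor the age of the animals, nor say whether a library is a single mouse or a pool. P-values therefore measure the spread between these libraries. No WT library of 4 weeks was analysed here, and the labels say that samples were processed in 2 batches that coincide with the 2 times, so time and batch cannot be told apart. Libraries are named by group, week and replicate number, as in VF_4w 6.

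MHC class I molecules display short peptides from the inside of a cell to cytotoxic T cells. Proteasomes cut proteins into peptides, the TAP transporter moves them into the endoplasmic reticulum, tapasin helps load them onto a heavy chain paired with β2-microglobulin, and the complex travels to the surface. Interferon gamma raises the whole chain of genes and replaces the catalytic subunits of the constitutive proteasome by those of the immunoproteasome. In stem cells of the blood this pathway is of interest because class I display exposes a mutant clone to immune cells, and because inflammatory signals reach these cells through interferon and IL-1 receptors.

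Library totals ran from 21990959 to 40178173 counts (median 27528218), and a member had at least 1501 counts in a library. Il1b was counted at 0 in every Il1bKO library, but counts of 0 also occurred in each of the other genotypes. Median Il1b reads were 0 in WT, 6 in VF and 32 in Il1r1KO, so a count of 0 checks that label only weakly. Il1r1 reads remained in Il1r1KO (9.71 to 31.1 CPM), where counts over the whole gene cannot check the label. The first human JAK2 part was at 65.8 to 218 CPM in mutants and at most 0.725 CPM in libraries labelled WT. The CreERT2 sequence had at most 1 read in the libraries labelled WT, although their label carries the Cre, so WT and VF differ in that transgene's reads as well as in JAK2. GFP reads ran from 3.04 to 1027 CPM in libraries labelled WT, the low ones being WT_2w 3 and WT_2w 4. In mutants they ran from 382 to 1357 CPM. GFP was at 465 to 514 CPM in VF and 874 to 1357 in Il1r1KO. The second human JAK2 part was at 39.7 to 57.8 CPM in VF and 81.4 to 115 in Il1r1KO. CreERT2 was at 185 to 384 CPM in VF and 447 to 821 in Il1bKO. The other transgene ranges of the knockouts overlapped those of VF. Each knockout therefore differed from VF in some transgene reads as well as in its labelled knockout. Il1bKO_4w 5 had 12 Il1r1 reads (0.299 CPM), the lowest of the 25 libraries, against a median of 12.6 CPM in its genotype. Libraries VF_4w 6, Il1bKO_4w 5 and Il1r1KO_4w 5 stand apart from their replicates. Main results that rest on them are also given without 1 or more of them, except for the markers of cell state. The stem cell markers Kit and Mecom were present at medians of 795 and 292 CPM. The B lineage markers Cd79a, Ms4a1, Pax5 and Igll1 and the T and NK markers Cd3e, Cd3g, Cd3d, Cd8a, Cd4, Klrd1 and Gzma were not analysed here.

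Of the members, 7 lie together in the MHC region of chromosome 17 in mm10 (GENCODE vM21), between the start of Tapbp at 33915899 and the end of H2-D1 at 35267499. Psmb10 (chr8:105935735-105938444) and Nlrc5 (chr8:94434356-94527272) share chromosome 8, and B2m (chr2:122147686-122153083) lies 7.21 Mb from Il1b. Promoter DNA is shown here because interferon signalling and NF-kB, which are among the controls of class I genes, act through short motifs close to the start site. RefSeq windows of GRCm38.p6, from 250 bases before to 50 after a start site, were found for 8 of the members (9 windows, H2-K1 with 2) and searched on both strands. The letters searched were GAAANNGAAA for the core of the interferon-stimulated response element, TTCNNNGAA for the gamma-activated site, CCAAT, and the kappa B consensus by its name. The interferon core was present in 1 of the 9 windows (B2m) and in 3.44% of 32851 promoters, the gamma-activated letters in 1 (Psmb8) and 8.3%, kappa B in 4 (B2m, H2-D1 and both of H2-K1) and 8.46%, and CCAAT in 7 and 37.4%. A match describes letters, not a bound site. Variants of these letters were not searched, so a window without a match is not shown to lack an interferon or NF-kB element. The first pair of sequences below gives the 250 bases before the start of B2m (chr2:122147437-122147686, plus strand) and of H2-K1 (chr17:34000348-34000597, minus strand), with motif matches on either strand in capitals.
B2m: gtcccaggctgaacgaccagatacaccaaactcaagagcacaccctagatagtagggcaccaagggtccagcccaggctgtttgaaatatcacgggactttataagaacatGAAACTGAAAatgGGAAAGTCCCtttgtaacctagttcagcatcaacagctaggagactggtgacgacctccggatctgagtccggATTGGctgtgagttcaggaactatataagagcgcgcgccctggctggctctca
H2-K1: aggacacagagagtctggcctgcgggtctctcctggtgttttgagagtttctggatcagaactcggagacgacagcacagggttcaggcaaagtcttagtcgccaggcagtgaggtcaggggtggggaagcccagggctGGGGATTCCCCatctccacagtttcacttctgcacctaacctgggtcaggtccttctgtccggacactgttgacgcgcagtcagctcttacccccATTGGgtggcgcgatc

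In B2m the interferon core ran from base −139 to −130 and the kappa B match from −126 to −117, on opposite strands and 3 bases apart. Shorter stretches show what the heavy chains share and which letters lie near the RefSeq start sites of Psmb8 and Psmb9. They are the kappa B stretches of H2-K1 (chr17:34000438-34000467, minus strand) and H2-D1 (chr17:35262914-35262943, plus strand), the gamma-activated letters of Psmb8 (chr17:34198089-34198118, plus strand) and the CCAAT box, read on the other strand, of Psmb9 (chr17:34187318-34187347, minus strand).
H2-K1 stretch: cccagggctGGGGATTCCCCatctccacag
H2-D1 stretch: cccagggctGGGGATTCCCCatctcctcag
Psmb8 stretch: cctccgctgTTCCCAGAAgatgcccccccc
Psmb9 stretch: cagccgctgATTGGaaagccgagccccgct
The H2-K1 and H2-D1 stretches were identical at 29 of 30 bases, and each held 2 overlapping kappa B matches. GENCODE vM21 begins H2-D1 at 35262730, Psmb8 at 34197721 and Psmb9 at 34187764 (minus strand), upstream of the RefSeq start sites. The stretches of these genes therefore lie inside their GENCODE spans. That of Psmb9 runs from base −17 to 12 of its RefSeq start. Tap1 and Psmb9 are read in opposite directions from start sites with 225 bases between them, so their windows shared 275 bases and the CCAAT box is the same one in both. None of the 4 motifs was found in the Psmb10 window. Because H2-K1, H2-D1 and the H2-Q and H2-T genes are close copies of each other, reads may be split between them in counting, and their separate values are uncertain to that extent.

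Levels of the members were compared per kilobase of mRNA (CPM per kb, median of 25 libraries). B2m, the light chain shared by class I molecules, stood at 4712 CPM per kb, above 99.99% of 13552 genes with a length. H2-K1 (1606) and H2-D1 (779), the classical heavy chains, followed, then the immunoproteasome subunits Psmb8 (244), Psmb9 (156) and Psmb10 (115). Tapbp, tapasin, was at 105, and Tap1 and Tap2, which together form the peptide transporter, were at 64.4 and 61.6. Nlrc5, the transactivator that acts on class I promoters, was lowest at 13.3 CPM per kb, above 52.3% of genes. This order held in 25 of 25 libraries for most neighbours, but Psmb10 was above Tapbp in 18 of 25 and Tap1 above Tap2 in 16 of 25, so these neighbours are not distinguished. In bulk RNA, fewer cells of a type and less RNA per cell cannot be told apart.

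**Figure D1:**
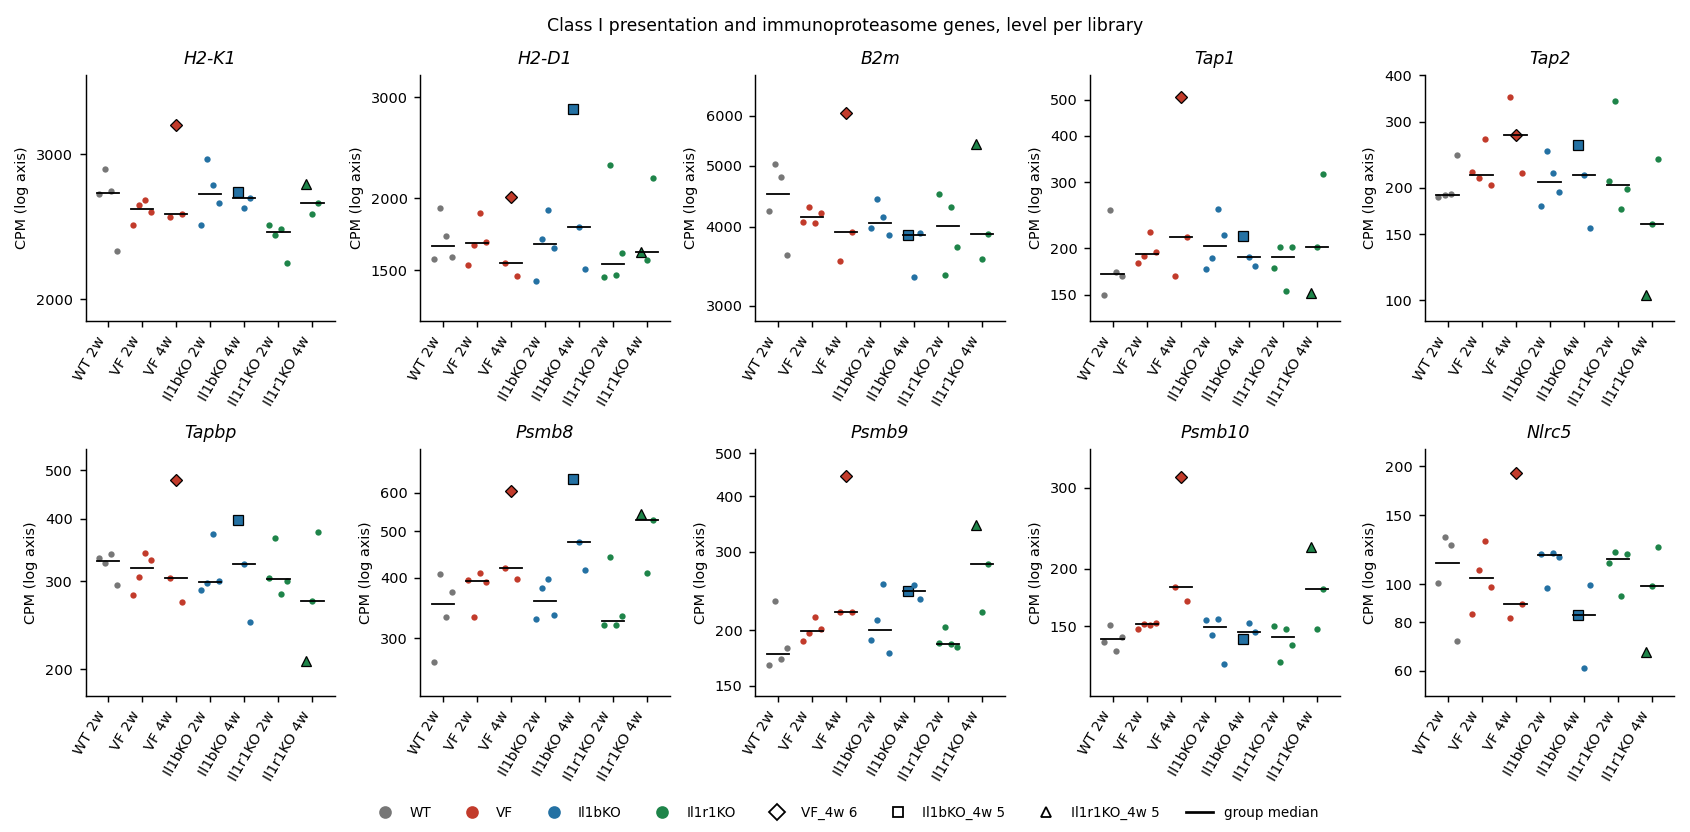
Level of each member in CPM (log axis) in the 25 libraries, by genotype and week; bars are group medians and outlined symbols mark the 3 libraries that stand apart. VF_4w 6 is the highest library in 7 of the 10 panels.

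The heavy and light chains varied least. H2-K1 (ENSMUSG00000061232) ranged from 2211 to 3259 CPM over the 25 libraries, a 1.47-fold span. At 2 weeks it read 2684, 2875, 2705 and 2288 CPM in libraries labelled WT and 2462, 2601, 2638 and 2549 in VF. These 2 groups overlapped, as did Il1bKO (2462, 2962, 2753 and 2614) and VF. H2-D1 (ENSMUSG00000073411) ranged from 1439 to 2854 CPM and its highest value was that of Il1bKO_4w 5, whose replicates had 1783 and 1507. B2m (ENSMUSG00000060802) read 3532, 6059 and 3927 CPM in VF at 4 weeks, 3882, 3334 and 3912 in Il1bKO and 5406, 3558 and 3903 in Il1r1KO. In each of VF and Il1r1KO 1 library of 3 was far above its replicates, and the groups overlapped.

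Peptide loading genes varied more between libraries of a group. Tap1 (ENSMUSG00000037321) read 182, 190, 220 and 196 CPM in VF at 2 weeks and 168, 508 and 214 at 4 weeks. Library VF_4w 6 alone was at 508, while the highest of the other 24 libraries had 315 (Il1r1KO_4w 7). Tap2 (ENSMUSG00000024339) at 4 weeks read 350, 277 and 220 CPM in VF, 261, 216 and 156 in Il1bKO, and 103, 160 and 238 in Il1r1KO. The lowest Tap2 value of the study was Il1r1KO_4w 5, which was also lowest for Tapbp (ENSMUSG00000024308) at 208 CPM, against 274 and 376 in its replicates. Nlrc5 (ENSMUSG00000074151) at 4 weeks read 81.7, 192 and 89.0 CPM in VF, 83.3, 60.9 and 99.3 in Il1bKO, and 67.0, 99.2 and 125 in Il1r1KO. Apart from VF_4w 6, the VF libraries lay inside the range of both knockouts for Nlrc5.

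The first comparison asked what mutant JAK2 did at 2 weeks. None of the 10 members passed the edgeR quasi-likelihood test with Benjamini-Hochberg adjustment in VF against WT, where 0.00734% of the 13630 genes tested were called. Of the 10, 5 were higher and 5 lower, the median log2 fold change was 0.04 (0.00 over all genes), and the 95% intervals stayed between −0.53 and 0.61. The lowest p-values belonged to Psmb8 (log2 0.15, SE 0.16, adjusted p = 1 in edgeR), Psmb10 (0.10, SE 0.145) and Tap2 (0.15, SE 0.22). No member was at an unadjusted p under 0.05, and DESeq2, limma voom and the fit without WT_2w 3 and WT_2w 4 also called 0. For H2-K1 the interval was −0.21 to 0.13 on the log2 scale, the narrowest of the 10, the others being wider.

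At 2 weeks no member passed in either IL-1 knockout against VF. In Il1bKO against VF 0 of 10 members were called (0.00734% of all genes), with log2 fold changes from −0.10 (Tap2) to 0.12 (Nlrc5) and a median of −0.01. The members of lowest p were H2-K1 (0.07, SE 0.08), Psmb8 (−0.08, SE 0.16) and Nlrc5 (0.12, SE 0.24), each at adjusted p = 1 in edgeR. In Il1r1KO against VF, 0 of 10 were called (0.0514% of all genes), with values from −0.11 (Psmb8) to 0.09 (Nlrc5) and a median of −0.07. The 3 of lowest p were H2-K1 (−0.11, SE 0.08), Psmb10 (−0.11, SE 0.145) and Psmb8 (−0.11, SE 0.16), each at adjusted p = 1 in edgeR. Unadjusted p was under 0.05 for none of the members in either comparison, and DESeq2 and limma voom called 0. Both comparisons use the same 4 VF libraries.

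At 4 weeks most members had values below 0 in the knockouts, and no member passed. In Il1bKO against VF 0 of 10 were called by edgeR (0.125% of all genes), 8 of 10 were lower, and the median was −0.27 against −0.02 over all genes. Psmb10 (ENSMUSG00000031897), the immunoproteasome subunit β2i, had the lowest p: 183, 316 and 170 CPM in VF and 141, 153 and 146 in Il1bKO, groups that do not overlap. Its log2 fold change was −0.61 (SE 0.17, 95% interval −0.95 to −0.26, adjusted p = 0.124 in edgeR), and DESeq2 called it (−0.61, adjusted p = 0.029), while limma voom called 0. Nlrc5 (−0.58, SE 0.28, adjusted p = 0.338) and Tap1 (−0.60, SE 0.29, adjusted p = 0.34, edgeR) came next, so 3 members had an unadjusted p under 0.05. Without VF_4w 6, edgeR gave −0.27 for Psmb10 (adjusted p = 0.363), −0.07 for Nlrc5 (0.927) and 0.03 for Tap1 (0.976), and the median of the 10 members was 0.05.

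In Il1r1KO against VF at 4 weeks 0 of 10 members were called (0.147% of all genes), 8 of 10 were lower and the median was −0.18, with 0.01 over all genes. Tap2 had the lowest p (log2 −0.76, SE 0.26, 95% interval −1.29 to −0.22, adjusted p = 0.239 in edgeR), and it was the 1 member at an unadjusted p under 0.05. Its VF values (350, 277 and 220 CPM) and Il1r1KO values (103, 160 and 238) overlapped. Psmb10 (−0.28, SE 0.17, adjusted p = 0.512) and Tapbp (−0.30, SE 0.20, adjusted p = 0.566, edgeR) followed. Without VF_4w 6 the fold change was −0.77 for Tap2 (adjusted p = 0.192, edgeR), 0.06 for Psmb10 and −0.01 for Tapbp, and the median of the members was 0.20. DESeq2 and limma voom called 0.

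**Figure D2:**
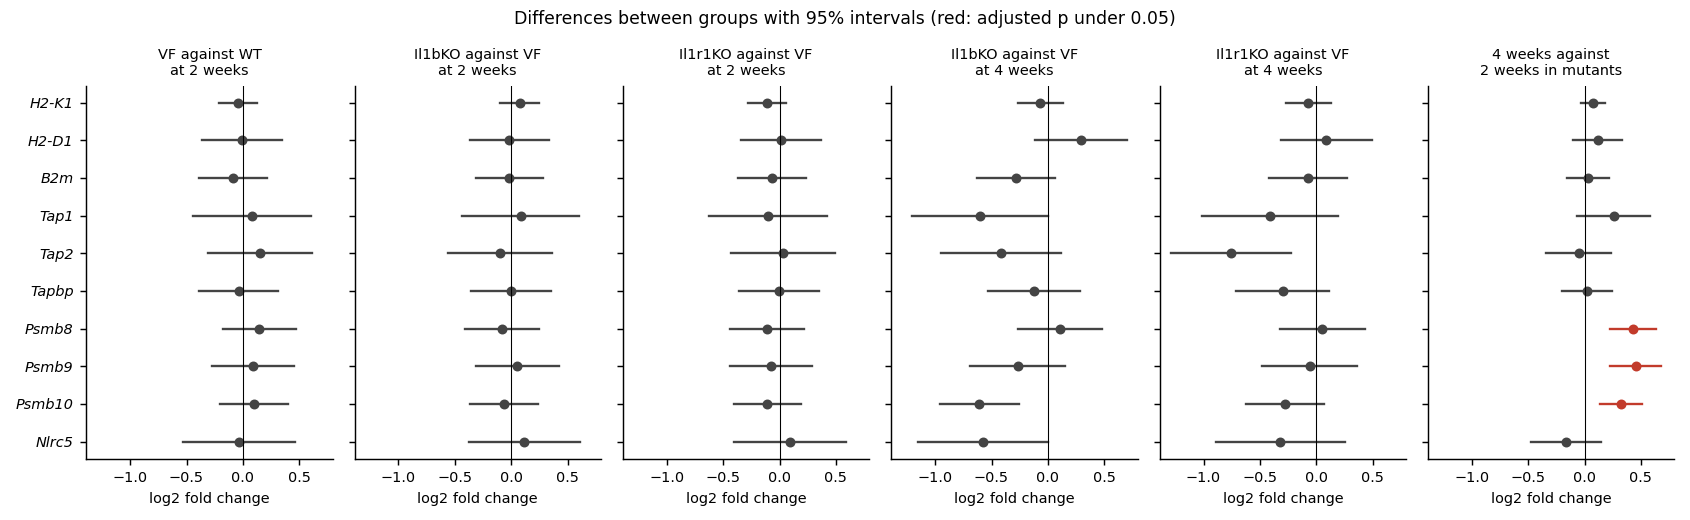
Log2 fold change (points) with its 95% interval (lines) for each member in 6 comparisons of the same fit; red marks an adjusted p under 0.05. Intervals cross or lie near 0 in the genotype comparisons at 2 weeks, and the intervals of the 3 immunoproteasome subunits lie above 0 at 4 weeks against 2 weeks.

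The differences were also averaged over both times. For Il1bKO against VF 0 of 10 members were called (0.139% of all genes), with a median of −0.13 and lowest p for Psmb10 (−0.34, SE 0.11, adjusted p = 0.38), Tap2 (−0.26, SE 0.17, adjusted p = 0.665) and Tap1 (−0.26, SE 0.19, adjusted p = 0.713, edgeR). For Il1r1KO against VF 0 of 10 were called (0.169% of all genes), with a median of −0.10 and lowest p for Tap2 (−0.36, SE 0.17, adjusted p = 0.422), Psmb10 (−0.19, SE 0.11, adjusted p = 0.529) and H2-K1 (−0.09, SE 0.06, adjusted p = 0.633, edgeR). Without VF_4w 6 the median of the members was 0.061 for Il1bKO and 0.064 for Il1r1KO, and Psmb10 was at −0.17 and −0.023. The knockouts were then set against each other, a difference that does not use the VF levels. The VF libraries still enter the estimate of spread that all groups of the fit share. In Il1bKO against Il1r1KO 0 of 10 were called (0.176% of all genes), 5 were higher and 5 lower, and the median was 0.02. H2-K1 (0.09, SE 0.06, adjusted p = 0.517), Psmb10 (−0.14, SE 0.11, adjusted p = 0.588) and B2m (−0.08, SE 0.11, adjusted p = 0.791, edgeR) had the lowest p. The intervals of all 10 members in this comparison lay between −0.49 and 0.45.

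Whether the knockouts' difference from VF itself changed between the times was tested as an interaction. For Il1bKO 0 of 10 members were called (0.0147% of all genes), the lowest p being that of Psmb10 (log2 −0.54, SE 0.22, adjusted p = 0.532, edgeR), followed by Nlrc5 (−0.69) and Tap1 (−0.69). Without VF_4w 6 these values were −0.21 for Psmb10, −0.19 for Nlrc5 and −0.055 for Tap1. For Il1r1KO 0 of 10 were called (0% of all genes, of which 725 had an unadjusted p under 0.05, while DESeq2 called 22 and limma voom 5), with the lowest p for Tap2 (log2 −0.79, SE 0.34, adjusted p = 0.884, edgeR). For each knockout 1 member had an unadjusted p under 0.05, and DESeq2 and limma voom called none of the 10.

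The immunoproteasome genes were higher at 4 weeks than at 2. Psmb8 (ENSMUSG00000024338), Psmb9 (ENSMUSG00000096727) and Psmb10, the catalytic subunits β5i, β1i and β2i, rose from 2 to 4 weeks in the mutants, by 0.43, 0.45 and 0.32 on the log2 scale. They were the 3 of 10 members called, where 14.4% of all genes were called in the same comparison. The median over the 10 members was 0.10 (−0.03 over all genes), and the other 7 ranged from −0.16 (Nlrc5) to 0.26 (Tap1).

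Psmb9 in VF read 189, 198, 214 and 202 CPM at 2 weeks and 219, 444 and 219 at 4 weeks. In Il1r1KO it read 187, 203, 186 and 183 and then 345, 220 and 282. In Il1bKO it read 190, 210, 254 and 177 and then 245, 253 and 235. The times did not overlap in VF and Il1r1KO and overlapped in Il1bKO. The fold change over the 3 genotypes was 0.45 (SE 0.11, 95% interval 0.23 to 0.68, adjusted p = 0.00926, edgeR).

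Psmb8 in Il1bKO read 330, 381, 398 and 336 CPM at 2 weeks and 642, 474 and 416 at 4 weeks, without overlap. In VF it read 395, 332, 409 and 392.0 and then 419, 606 and 397. In Il1r1KO it read 319, 443, 320 and 333 and then 542, 409 and 526. In VF and Il1r1KO the times overlapped. Its fold change was 0.43 (SE 0.10, 95% interval 0.23 to 0.63, adjusted p = 0.00653, edgeR).

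Psmb10 in VF read 148, 152, 151 and 153 CPM at 2 weeks and 183, 316 and 170 at 4 weeks, without overlap. In Il1bKO it read 155, 144, 156 and 125 and then 141, 153 and 146, within the same range at both times. In Il1r1KO it read 151, 125, 148 and 137 and then 223, 148 and 181. Its fold change over the 3 genotypes was 0.32 (SE 0.09, 95% interval 0.14 to 0.51, adjusted p = 0.0199, edgeR), and by genotype it was 0.56 in VF, 0.02 in Il1bKO and 0.39 in Il1r1KO. Whether these genotypes differ is the interaction given above, which did not pass.

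Leaving out VF_4w 6, Il1bKO_4w 5 and Il1r1KO_4w 5 together left Psmb9 called (1 of 10, log2 0.26, adjusted p = 0.0418), with Psmb8 at 0.27 (adjusted p = 0.0546) and Psmb10 at 0.17 (adjusted p = 0.0716, edgeR). Without Il1r1KO_4w 5 alone, Psmb10 was at 0.27 (adjusted p = 0.0574, edgeR), and limma voom, which weights libraries by quality, gave Psmb10 0.17 (adjusted p = 0.102). In no genotype by itself was a member called, with Psmb9 at 0.55 in VF, 0.23 in Il1bKO and 0.57 in Il1r1KO. Over all 7 groups together, Psmb10 was the 1 member of 10 that passed a test of any difference (adjusted p = 0.0328, edgeR, 7.05% of all genes called), with Psmb8 (0.0604) and Psmb9 (0.0702) next. That call was lost (0 members) without any 1 of WT_2w 1, WT_2w 3, Il1bKO_2w 2, Il1r1KO_2w 4 and Il1r1KO_4w 5, and 2 members were called without any 1 of VF_4w 5, VF_4w 7, Il1bKO_4w 7, Il1r1KO_2w 2 and Il1r1KO_4w 6.

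Subunits of the constitutive 20S core, the particle that does the cutting, were counted in the same comparison. Of 14 subunits, 12 were called higher (14.4% of all genes were called), 14 had values above 0 and the median was 0.30. The constitutive catalytic subunits Psmb5 (0.47, SE 0.07, adjusted p = 2.9e-04) and Psmb6 (0.35, SE 0.06, adjusted p = 0.0021) and the structural subunit Psmb3 (0.49, SE 0.08, adjusted p = 7.7e-04, edgeR) were among them. Without the 3 libraries that stand apart, 10 of 14 were called and the median was 0.21. Among 24 measured genes of other class I molecules and antigen processing, 18 had values above 0, 3 were called higher and 1 lower (median 0.14), a share near the 14.4% of all genes. Without the 3 libraries standing apart, 13 of 24 were above 0, 2 were called higher and 2 lower, the median was near 0 (2.6e-04) and Psme1 was no longer called. In the full set they included Psme2 (0.46, SE 0.10, adjusted p = 0.00608) and Psme1 (0.29, SE 0.08, adjusted p = 0.0155), the subunits of the PA28 proteasome activator, and Mr1 (−0.44, SE 0.13, adjusted p = 0.0268, edgeR), which presents vitamin B metabolites to T cells.

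Each immunoproteasome subunit takes the place of a constitutive one, β5i of Psmb5, β1i of Psmb6 and β2i of Psmb7, so their ratio was formed in each library from CPM per kb. Over 25 libraries Psmb8 to Psmb5 was 1.495 to 2.84 (median 2.19), Psmb9 to Psmb6 0.443 to 0.963 (median 0.512) and Psmb10 to Psmb7 0.852 to 1.65 (median 1.07). From 2 to 4 weeks in the mutants (12 and 9 libraries) the log2 ratio differed by −0.05, 0.07 and 0.02. Exact two-sided permutation tests of time within genotype, an analysis added after the values had been seen, gave p = 0.661, 0.564 and 0.834 (each 0.834 after Benjamini-Hochberg adjustment over the 3). A p of this size does not show equal ratios. Library VF_4w 6 had the highest of each of the 3 ratios, while in its group the other 2 libraries had Psmb9 to Psmb6 at 0.498 and 0.512.

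**Figure D3:**
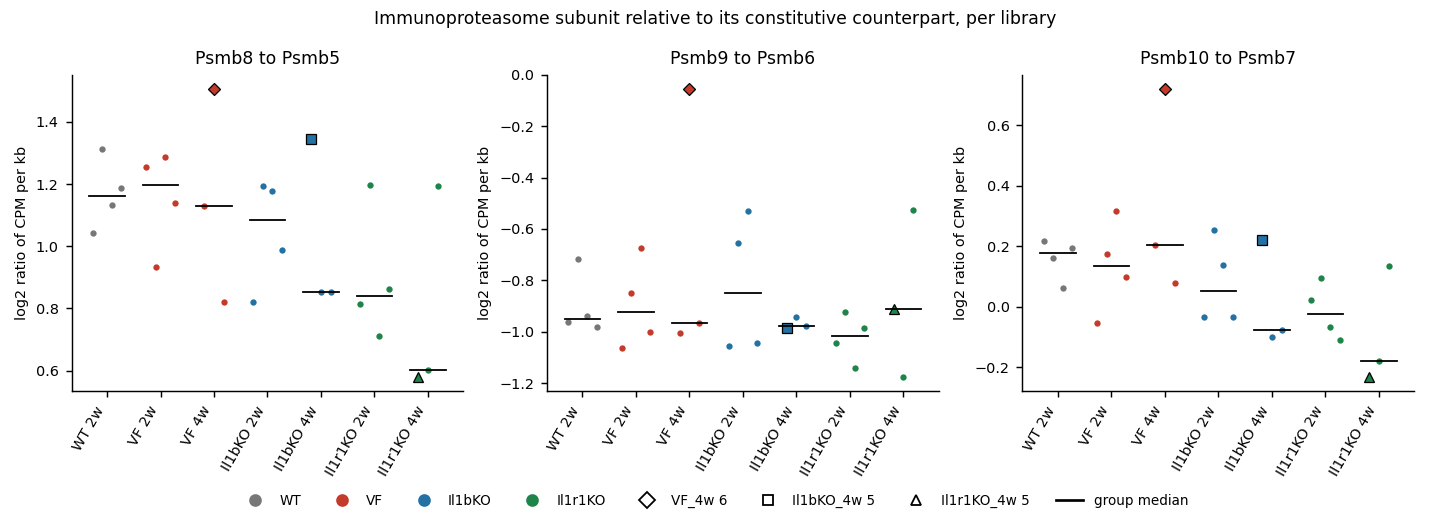
Log2 ratio of each immunoproteasome subunit to its constitutive counterpart (CPM per kb) in 25 libraries by group; bars are group medians and outlined symbols the 3 libraries that stand apart. The 2-week and 4-week libraries overlap in each genotype, and VF_4w 6 is the highest in each panel.

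The other genes of the interferon pathway were counted in the same comparison. Among 26 genes of interferon signalling and class I control, 1 was called higher and 2 lower at 4 weeks, with a median of −0.06. That share does not exceed the 14.4% of all genes called in this comparison. Ezh2, a histone methyltransferase that can repress class I genes, rose (0.46, SE 0.09, adjusted p = 0.00292), while Jak1, a kinase of interferon receptors (−0.37, SE 0.07, adjusted p = 0.00328), and the receptor chain Ifnar1 (−0.46, SE 0.12, adjusted p = 0.0115, edgeR) fell. Without the 3 libraries standing apart, Ezh2, Jak1 and Ifnar1 were called again together with Stat2, 1 higher and 3 lower (median −0.12). Of 24 interferon-induced genes 0 were called by edgeR, DESeq2 or limma voom, 1 had an unadjusted p under 0.05 in edgeR and 16 were higher (median 0.05), Isg15 having the lowest p (0.47, SE 0.21, adjusted p = 0.134) before Gbp6 (0.89, SE 0.45, adjusted p = 0.199). Without VF_4w 6, 5 of these 24 were above 0, the median was −0.21 and 2 were called lower (Gbp4 and Oasl2). Without the 3 libraries standing apart, 3 were called lower (Gbp2, Gbp4 and Oasl2) and the median was −0.26.

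Markers of cell state moved between the times as well. Of 12 stem cell markers 11 had values below 0 and 4 fell (14.4% of all genes were called), among them Mecom (−0.80, SE 0.11, adjusted p = 1.6e-04) and Fgd5 (−1.14, SE 0.24, adjusted p = 0.00414, edgeR). Their summed level was 2992 to 3834 CPM in the mutant libraries of 2 weeks and 2140 to 2913 in those of 4 weeks. Cd48, the marker on which the sort excluded cells, rose (1.81, SE 0.38, adjusted p = 0.00394, edgeR) from a low level. Of 9 erythroid markers 6 were above 0 and 2 were called, the globins Hbb-bs (1.43) and Hba-a2 (2.59). Of 7 megakaryocyte markers 5 were above 0 and the platelet factor Pf4 was called (1.69). Of 8 macrophage and dendritic markers 6 were above 0, from −3.52 to 1.04, and the class II gene H2-Ab1 was called (1.04). The T and NK markers measured were called in opposite directions, Nkg7 at 1.23 and Klrb1c at −1.69. None of 10 neutrophil and monocyte markers was above 0 (median −0.75), and 2 of 3 B lineage markers were (median 0.27). In VF_4w 6, Pf4 (3.91), H2-Ab1 (3.10), Cd48 (1.60) and Nkg7 (1.34) were above the median of the other libraries on the log2 scale. Below it were Klrb1c (−3.15), Fgd5 (−1.94), Mecom (−1.02) and the globins Hbb-bs and Hba-a2 (each −2.56). How far the marker shifts rest on the 3 libraries standing apart was not tested. The part of the marker shifts in the rise of Psmb8, Psmb9 and Psmb10 was not tested.

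Library VF_4w 6 bears on each comparison of VF at 4 weeks. The 10 members were above the median of the other 24 libraries there, by 0.31 to 1.42 on the log2 scale (median 0.63), and 7 of 10 were above each of the other 24. Over all genes 4.77% were above each of the other 24 in that library, with a median of −0.01. Tap1, at 508 CPM, was 1.42 above, Psmb9 and Psmb10 were near 1.1 above, and H2-D1 was 0.31 above.

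Interferon-induced genes stood out more strongly in the same library. There 23 of 24 exceeded all other libraries (median 1.57 on the log2 scale), and their summed level was 9355 CPM, against 2432 to 3772 in the groups without it. Of the constitutive 20S core 0 of 14 did so (median 0.32). The class II genes Cd74, H2-Aa, H2-Ab1 and H2-Eb1 summed to 2506 CPM, against 103 to 756 in the other 24 libraries. The 4 other measured macrophage and dendritic markers (Csf1r, Vcam1, Siglech and Flt3) summed to 24.7 CPM, inside the range of the other libraries (19.1 to 238). Among these, Vcam1 was 2.73 above the median of the other libraries on the log2 scale, Csf1r (−0.87) and Flt3 (−0.58) were below it, and Siglech is at 0 in most libraries. Megakaryocyte markers summed to 2837 CPM, the highest of the 25 libraries, and neutrophil and monocyte markers to 94.2 CPM, the lowest. The part of these markers in the class I values was not tested.

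With that library in the fit, most interferon-induced genes had values below 0 in both knockouts at 4 weeks, and 1 passed in each. In Il1bKO against VF 24 of 24 had values below 0 (median −0.71) and Gbp4, an interferon-induced GTPase, was called (−4.47, SE 0.83, adjusted p = 0.0213), with Gbp6 next (−4.35, SE 0.96, adjusted p = 0.0751, edgeR). In Il1r1KO against VF the median was −0.97 with 1 of 24 above 0, and Gbp4 was called again (−4.28, SE 0.82, adjusted p = 0.035, edgeR). DESeq2 called 4 of the 24 in each comparison, Gbp4 among them, while limma voom called 0 in Il1bKO and 1 in Il1r1KO (Ly6e). Without VF_4w 6 the medians were 0.08 and 0.19, and Gbp4 was at −2.44 and −2.25 (adjusted p = 0.11 and 0.0774, edgeR). The 2 comparisons share their VF libraries.

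**Figure D4:**
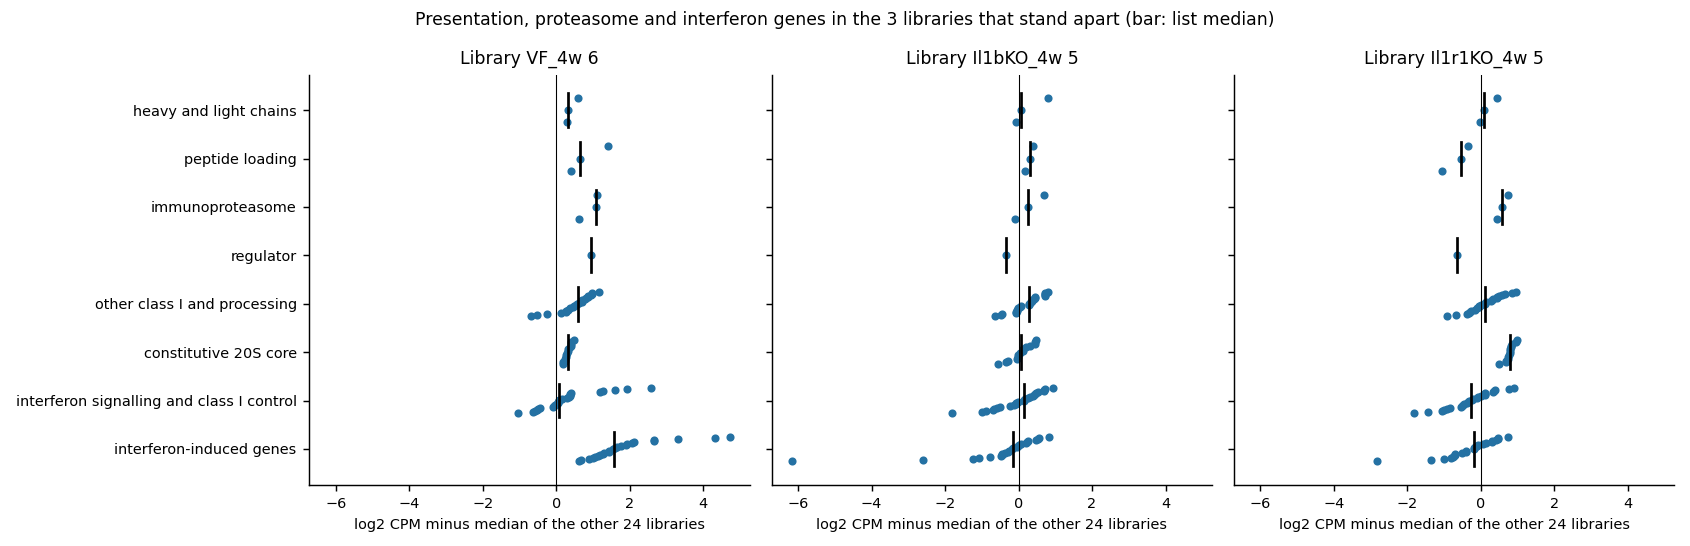
Distance of each gene from the median of the other 24 libraries (log2 CPM) in the 3 libraries that stand apart, by list; points are genes and bars list medians. In VF_4w 6 the members, the 20S core and the interferon-induced genes lie to the right of 0. In Il1r1KO_4w 5 the 20S core and the immunoproteasome subunits do.

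Within groups the members varied together in part. With each group's mean taken out, the 45 pairs of members had Pearson r from −0.46 (B2m and Tap2) to 0.88 (Psmb9 and Psmb10) over 25 libraries, with a median of 0.46, and 20 pairs were above 0.5. These values describe libraries that share depth and sorting, and no p is given. Without VF_4w 6 the median fell to 0.27, 12 pairs were above 0.5, and the extremes were −0.59 (B2m and Tap2) and 0.81 (H2-D1 and Tapbp). Without the 3 libraries standing apart (22 libraries) the median was 0.34 and 16 pairs were above 0.5, with the same pairs at the extremes (−0.49 and 0.84).

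H2-D1 had its highest values with Tapbp (0.81 in 24 libraries and 0.84 in 22) and Psmb8 (0.79 in both). B2m was at 0.69 and 0.72 with H2-K1 in these sets. Its other values depended on the set, being 0.61 and 0.39 with Psmb10, 0.47 and 0.23 with Psmb9, and −0.36 and −0.13 with Tapbp. Psmb9 and Tap1, whose start sites lie next to each other, were at 0.67 over 25 libraries, 0.28 without VF_4w 6 and 0.78 without the 3 libraries. Nlrc5 was closest to Tap1 in each set (0.79, 0.64 and 0.52), while its value with B2m was 0.39, 0.02 and 0.44.

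**Figure D5:**
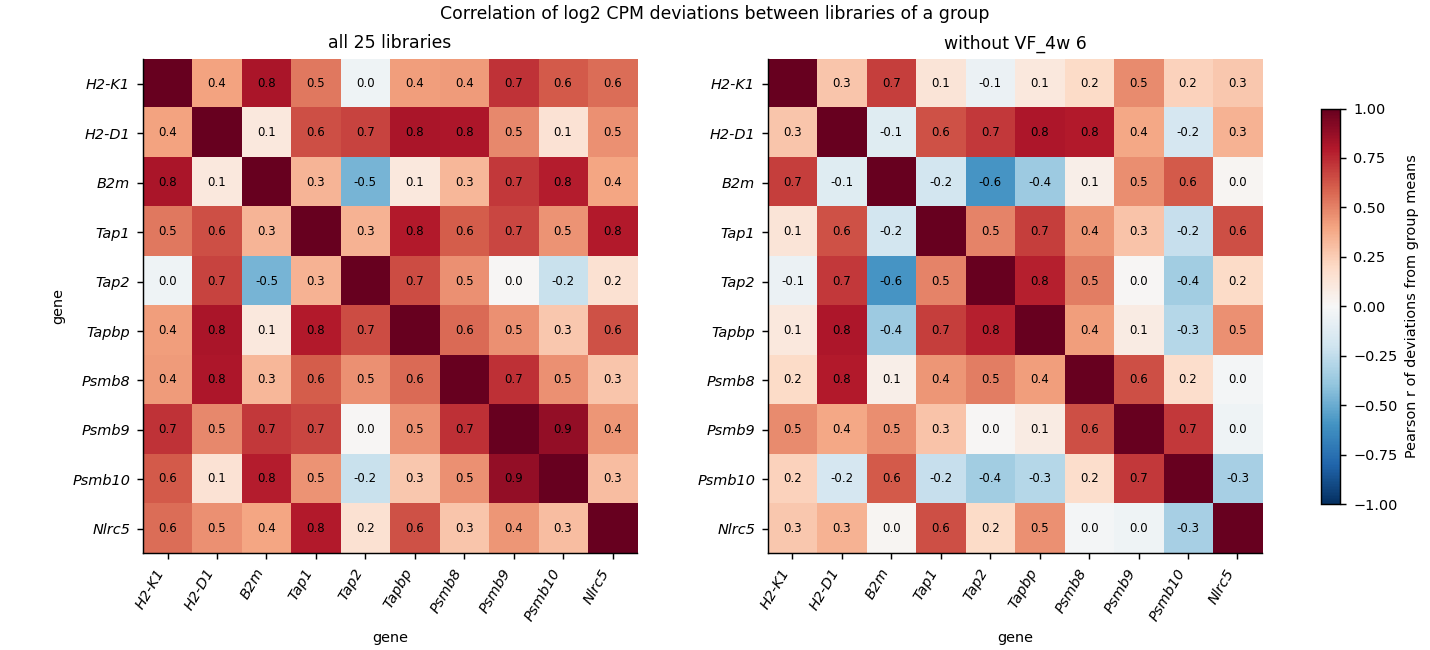
Pearson r between members of their log2 CPM deviations from group means, over 25 libraries (left) and without VF_4w 6 (right), on a scale from −1 to 1. The median of the 45 pairs is 0.46 on the left and 0.27 on the right.

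Genes outside the 10 were ranked by likeness to the members' mean deviation, over 11729 genes with a mean log2 CPM above 1. The 8 closest over 25 libraries were Irf1 (r = 0.92), H2-Q10 (0.91), H2-Ab1 (0.89), Ly6a (0.87), H2-T22 (0.87), Cd74 (0.86), Gbp2 (0.85) and Tgtp1 (0.85). Irf1 is an interferon-induced transcription factor, H2-Q10 and H2-T22 are further class I genes, and Ly6a encodes Sca-1, one of the proteins used in the sort. VF_4w 6 had 440 CPM of Irf1 (median 146 over the libraries) and 444 CPM of Ly6a (median 171). Without that library the 8 closest included H2-Q10 (0.81), H2-Ab1 (0.81), Cd74 (0.80), Irf1 (0.78) and Ly6a (0.77) again, together with Nrde2, Gimap7 and Itgb7. Without the 3 libraries Irf1, Cd74 and Ly6a were no longer among the 8, which were Tlnrd1, Tnfaip1, H2-Q10 (0.80), H2-Ab1 (0.80), Nrde2, Tbc1d10b, Itgb7 and Eif2b2.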

How the data were processed

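RNA of sorted stem cells was measured in 25 libraries of 4 genotypes and 2 times (SMART-Seq v4, unstranded, per the labels' protocols). The authors deposited raw read counts per gene, and the submitters' processing notes name FastQC 0.11.5, STAR 2.7.10a, featureCounts, R 4.2.2 and the mm10 build; the annotation release is not given in the sources used here. CPM, counts scaled to the library total after TMM factors (0.921 to 1.03), and all fits were computed here in R 4.3.3. One edgeR 4.0.16 quasi-likelihood model over the 7 groups and 13630 genes gave each comparison, with Benjamini-Hochberg adjustment over all genes and a threshold of 0.05. Depth was 21990959 to 40178173 counts per library, and the biological coefficient of variation was 0.411. Replicates differed by more than sampling noise in all 33 pairs compared. The alternatives were 45 refits, with DESeq2 1.42.0 and limma 3.58.1 voom among them. Members named in a comparison are those called, or otherwise the 3 of lowest p. Lists, members and the 3 libraries standing apart were chosen with earlier results of these data known. Positions and lengths came from GENCODE vM21, a length being that of the longest principal transcript. The subunit ratios and the differences between times by genotype were added after seeing the data. The model was run on simulated counts for VF against WT at 2 weeks and Il1bKO against VF over both times. These counts held no libraries that stand apart, so the run cannot show how the model handles them.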

Additional observations from a re-analysis of the deposited data

Results flagged for a closer look

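Among 40 sets of 4 libraries at 2 weeks (10 members in 4 groups), 4 held a library whose gap to its nearest replicate exceeded 0.829 of the set's range, Dixon's limit for 4 values, which chance alone passes in about 1 of 20 sets. Tap2 stood at 244.5 CPM in WT_2w 4, with its replicates at 188.5 to 192 CPM. Tapbp stood at 372.5 CPM in Il1bKO_2w 3, with the others at 288.4 to 299.8 CPM. Psmb8 stood at 442.6 CPM in Il1r1KO_2w 2, with the others at 319.2 to 333 CPM. Nlrc5 was low, at 97.85 CPM, in Il1bKO_2w 2, with the others at 117.7 to 120.1 CPM. The 4 values lie in 4 different libraries, and none of these is among the 3 that stand apart at 4 weeks.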

How the results depend on the processing

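Of 1508 alternative values of 71 results, 1354 kept their direction and side of the threshold (or, for a count, stayed within 1.5 times), 120 moved, 20 changed sign, 13 lost and 1 gained a call. The count of members called was 0 in the 10 comparisons of genotypes under each alternative run, leaving out each library in turn included (0 to 0), except 1 (Psmb10) by DESeq2 for Il1bKO against VF at 4 weeks. For 4 against 2 weeks it was 1 without the 3 libraries standing apart, 0 in VF alone, 0 in Il1bKO alone, 0 in Il1r1KO alone, and 2 to 3 with each library left out. For any difference among the 7 groups it was 3 by DESeq2 and 0 by limma voom, 0 without the 3 libraries, 0 without WT_2w 3 and WT_2w 4, and 0 to 2 with each library left out. Signs turned without the 3 libraries for Tap1 in Il1bKO against VF over both times (0.015), Tapbp in Il1r1KO against VF at 4 weeks (0.17), the time dependence in Il1r1KO of Nlrc5 (0.30) and Tapbp (0.18), B2m between the knockouts (0.0033), and the log2 ratios Psmb9 to Psmb6 (−0.019) and Psmb10 to Psmb7 (−0.056). By limma voom that time dependence was 0.012 for Nlrc5 and 0.027 for Tapbp. With each library left out, Tap1 ran from −0.90 to 0.027 in Il1bKO against VF at 4 weeks and from −0.41 to 0.055 over both times, Psmb10 from −0.44 to 0.063 in Il1r1KO against VF at 4 weeks, Nlrc5 from −0.63 to 0.10 in its time dependence, and B2m from −0.14 to 0.014 between the knockouts. The log2 ratios ran from −0.11 to 0.0093 (Psmb8 to Psmb5), −0.029 to 0.13 (Psmb9 to Psmb6) and −0.045 to 0.062 (Psmb10 to Psmb7). The cause of these shifts was not tested.

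Replicate numbers recur across genotypes. Same-numbered libraries were not seen to deviate together (33 pairs, r from −0.292 to 0.17, 4 above 0.1). In 90 pairs of other numbers r ran from −0.274 to 0.25. With so few libraries a group this check cannot exclude that same-numbered libraries share a handling step. With the number as a replicate block, members called for any difference were 0 and genes called 15 in place of 961; numbers 1 to 4 and 5 to 7 mark the times, so this block also takes up the time difference, and 4 against 2 weeks cannot be fitted with it. For Il1bKO against VF at 4 weeks genes called were 7 in place of 17, and no other count of members changed under the block. The background of calls at 4 weeks moved widely as well, from 5 to 225 genes for Il1bKO and from 1 to 139 for Il1r1KO with each library left out. At 4 weeks, with 3 libraries a group, the SE of Il1bKO against VF ran from 0.10 for H2-K1 to 0.29 for Tap1, so the size of difference that could be detected differed between members.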

Other observations

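In library Il1r1KO_4w 5 the proteasome core and some peptide loading genes stood apart in opposite directions. All 14 of the 14 constitutive 20S core genes were above each of the other 24 libraries there, by a median of 0.79 on the log2 scale against the median of those libraries. Psmb8, Psmb9 and Psmb10 were 0.45 to 0.74 above the median without exceeding every other library. Tap2 and Tapbp were below each of the other 24 libraries, while Tap1 was at −0.35 and not the lowest. Over all genes in that library, 17.3% were above each of the other 24.

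In Il1bKO_4w 5, H2-D1 (0.81) and Psmb8 (0.70) were above each of the other 24 libraries, while H2-K1 (0.06) and B2m (−0.07) were near the median. There 17.5% of all genes were above each of the other 24.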
